A study of Mus musculus with 16 samples.

Results

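Green fluorescent astrocytes that had lost Eed were compared with green Eed+/+ astrocytes, both sorted from mouse neocortex on postnatal day 4. The comparison was defined by the sample titles: 5 Eed-/- and 5 Eed+/+ astrocyte libraries, 10 of the 16 libraries of the series. The labels give the strain as CD1, and the study's methods name a mixed background of C57BL/6 and CD1. Both groups came from mice with MADM7-GT/TG, Emx1-cre and the XGFAP-lacZ transgene. Mice of the Eed+/+ group were wild type for Eed, and mice of the Eed-/- group were heterozygous as animals and carried the Eed mutation on a MADM chromosome. In MADM (mosaic analysis with double markers), Cre joins homologous chromosomes in a dividing progenitor, so that its green daughters in the Eed mosaic are homozygous mutant and sit among mostly heterozygous cells. Emx1-cre confines the recombination to the Emx1 lineage, which includes the progenitors of the dorsal telencephalon. The XGFAP-lacZ transgene, driven by a human GFAP promoter, served as the astrocyte gate. The green cells of both groups carry paternal uniparental disomy of chromosome 7, so this is shared by the controls. Each library came from 1 animal.

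Eed belongs to the core of PRC2 (Polycomb repressive complex 2), whose enzymes Ezh1 and Ezh2 place the repressive mark H3K27me3 on histone tails. PRC2 is known for keeping developmental regulators such as the Hox genes silent outside the cells that need them, and for holding down the cell cycle inhibitor gene Cdkn2a. Cortical astrocytes arise from radial glia, divide in the cortex during the first days after birth, and then acquire the transporters and channels with which they clear glutamate and buffer potassium and water.

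The libraries differed strongly in quality, and unevenly between the genotypes. Eed+/+ replicates 1, 2, 4 and 5 and Eed-/- replicates 2 and 5 had 60.5 to 76.6% of their reads aligned to 1 position and 994077 to 3178529 reads on genes. Eed+/+ replicate 3 and Eed-/- replicates 1, 3 and 4 had 26.1 to 38.1% aligned and 211736 to 477760 reads on genes. The counts of genes past each threshold are therefore given for all 10 libraries and for the 6 well aligned ones, in which the Eed-/- group holds only 2 animals. Gene lists are described in the 6 libraries, with the values over 10 libraries where they differ in direction. Levels are counts per 1000000 reads on genes (CPM), so that 1 read is worth most in the shallowest libraries. All 25 astrocyte markers passed the filter on low counts, and their summed level was 37230 to 56930 CPM in the 4 well aligned Eed+/+ libraries and 68450 and 26120 CPM in Eed-/- replicates 2 and 5, while the 5 neuron libraries of the series had 15380 to 27480 CPM. In the poorly aligned libraries the sum was 10850 CPM in Eed+/+ replicate 3 and 10670, 29430 and 16870 CPM in Eed-/- replicates 1, 3 and 4, so that Eed+/+ replicate 3 and Eed-/- replicate 1 lay below every neuron library, and Eed-/- replicates 4 and 5 lay within the range of the neurons. Markers of other cells were present. Erythroid genes summed to 8829 and 11930 CPM in Eed-/- replicates 1 and 4, microglia markers to 16440 CPM in Eed-/- replicate 1 and 2949 CPM in replicate 3, and pericyte and fibroblast markers to 1656 CPM in replicate 3, while erythroid genes were at 0 in Eed-/- replicates 2 and 5. The part of these cells in any 10-library value was not tested. Sex was not matched: Xist, the RNA of the inactive X chromosome, had 639 reads in Eed+/+ replicate 3, 178 in replicate 5, 3 in replicate 1 and 0 in every Eed-/- library.

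**Figure D1:**
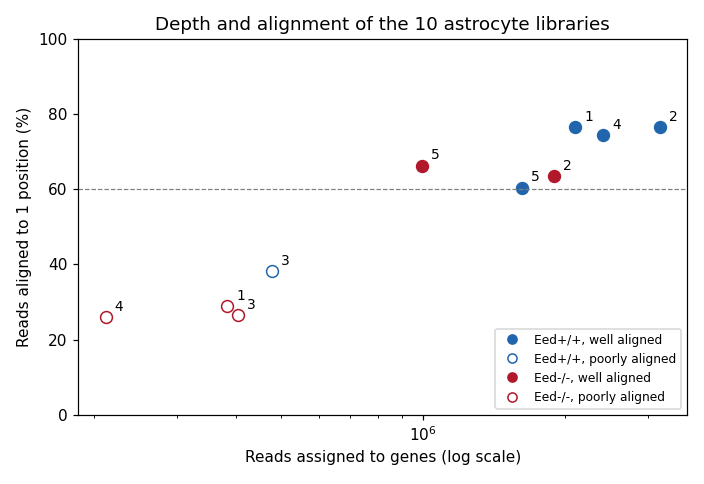
Percentage of reads aligned to 1 position (y axis) against reads assigned to genes (x axis, log scale) for each astrocyte library, with replicate numbers beside the points. Filled points are the 6 libraries above the dashed 60% line, 4 Eed+/+ (blue) and 2 Eed-/- (red). The 3 open red points and the open blue point lie at or below 38.1%.

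The targeted gene was examined first. Eed had 88, 204, 2, 85 and 41 reads in Eed+/+ replicates 1 to 5 and 0, 26, 0, 0 and 14 reads in Eed-/- replicates 1 to 5. The Eed-/- libraries with reads were the 2 well aligned ones, and a single Eed+/+ library, the poorly aligned replicate 3, lay within the Eed-/- range. With CPM corrected for composition, the level averaged 37.6 ± 25.3 in the Eed+/+ group and 6.19 ± 8.56 in the Eed-/- group (SD, n = 5 libraries each). A two-sided exact permutation test gave p = 0.0238. The Eed-/- group holds more poorly aligned libraries than the Eed+/+ group, so this test cannot separate genotype from library quality. By edgeR the log2 fold change of Eed was -2.48 over 10 libraries (adjusted p 0.9999) and -1.58 over 6 (adjusted p 0.9998). In the 6 well aligned libraries Eed was at 13.8 and 14.1 CPM in Eed-/- against 41.9, 64.2, 35.3 and 25.3 CPM in Eed+/+ cells, without overlap, and the exact permutation test gave p = 0.133, the smallest value it can reach for 2 against 4. The counts cover the whole gene, so exons that a deletion leaves in place would still be counted. Of the enzymes of the complex, Ezh2 had 33.3 and 171 CPM in Eed-/- against 65.4 to 153 CPM in Eed+/+ cells, and Suz12, the scaffold subunit, had 17 and 28 reads against 26 to 74, and in CPM both overlapped between the genotypes.

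Across all 10 libraries, edgeR tested 8956 genes. At adjusted p-values of 0.05 and of 0.2, the latter being the study's cutoff in these cells, it called 0 genes (0.0%). At an unadjusted p under 0.05, 32 genes were higher (0.357%) and 76 lower (0.849%) in Eed-/- cells, and with another scaling (RLE in place of TMM) the split was 144 higher and 82 lower. Under TMM the log2 fold changes had a median of -0.54 and under RLE of -0.37, so a negative value over 10 libraries is to be read against this shift. DESeq2 called 1 gene at either threshold and limma-voom with quality weights 0. Without Eed-/- replicate 5, edgeR called 316 genes at 0.2. The biological coefficient of variation of this fit was 1.38, against 0.836 in the 6 well aligned libraries.

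Of the 5 higher genes with the smallest p-values over 10 libraries, Gm47542 and Uhrf1 were also high in the poorly aligned Eed+/+ library, while Crym, Tbcd and Pkp2 had 0 reads there. Gm47542 had 8189, 7194 and 7912 reads in the poorly aligned Eed-/- replicates 1, 3 and 4 (at least 17830 CPM), but also 9664 CPM in the poorly aligned Eed+/+ replicate 3, against 206 to 1901 CPM in the well aligned Eed+/+ libraries (log2 fold change 2.56 ± 0.74, SE). Without Eed+/+ replicate 3 its log2 fold change was 4.42, with an adjusted p of 0.0122 by edgeR. Uhrf1, which helps to copy DNA methylation to new strands, had the same order of libraries, with 8618 to 21790 CPM in the poorly aligned Eed-/- libraries, 4887 CPM in the poorly aligned Eed+/+ library and 268 to 1475 CPM in the well aligned Eed+/+ ones (2.44 ± 0.80). Without Eed+/+ replicate 3 its log2 fold change was 3.72. In Eed-/- replicates 2 and 5 the DNA methylation machinery, Uhrf1 included, summed to 1058 and 976 CPM, so Uhrf1 lay below the highest well aligned Eed+/+ level there. On the lower side, Wdr19, a component of intraflagellar transport in the cilium, had 34, 62, 27, 19 and 88 reads in Eed+/+ replicates 1 to 5 and 0, 2, 0, 0 and 1 reads in the Eed-/- libraries (-5.47 ± 1.97). Mef2d, a transcription factor, had 71, 138, 55, 36 and 16 reads against 0, 3, 0, 0 and 2 (-5.30 ± 1.96). Its log2 fold change was -4.64 without Eed+/+ replicate 3 and -3.73 by limma-voom. The genotypes did not overlap for Wdr19 and Mef2d, nor for 168 genes in all that were lower in Eed-/- cells (1.88% of those tested), while 1 gene was higher without overlap (0.0112%). That gene was Pkp2, a desmosome component, with 360, 14.3, 69.4, 137 and 8.05 CPM in Eed-/- replicates 1 to 5 and at most 5.41 CPM in Eed+/+ libraries. It was also the only DESeq2 call.

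In the 6 well aligned libraries edgeR called 0 of 12070 genes at 0.05 (0.0%) and 1 at 0.2 (0.00829%), Crym. At an unadjusted p under 0.05, 152 genes were higher (1.26%) and 336 lower (2.78%), and limma-voom gave 270 and 89. Of the 152 higher genes, 35 would not have passed the filter on low counts from the Eed+/+ libraries alone, and of the 336 lower ones 183 would not have passed from the Eed-/- libraries alone, so that the filter favoured their direction. DESeq2, the tool of the study, called 5 genes higher (0.0414%) and 9 lower (0.0746%) at 0.05, and 17 higher (0.141%) and 89 lower (0.737%) at 0.2. Tested on counts simulated without any difference, DESeq2 made as many calls at 0.05 over 2 against 4 libraries as on the real counts. At 0.2 it made fewer, and edgeR and limma-voom made none. With 200 genes changed in simulated counts, edgeR found 56 of them at 0.05 over 6 libraries and 1 over 10. DESeq2 found 82 and 31, but also called 68 and 28 unchanged genes. A count of 0 by edgeR thus does not show that no gene differed. The genes below are described by their values, and the DESeq2 calls are not read as changes. The 14 DESeq2 calls became 5 without Eed+/+ replicate 2, 7 without Eed+/+ replicate 4, 58 without Eed+/+ replicate 5, 112 without Eed-/- replicate 2 and 611 without Eed-/- replicate 5.

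**Figure D2:**
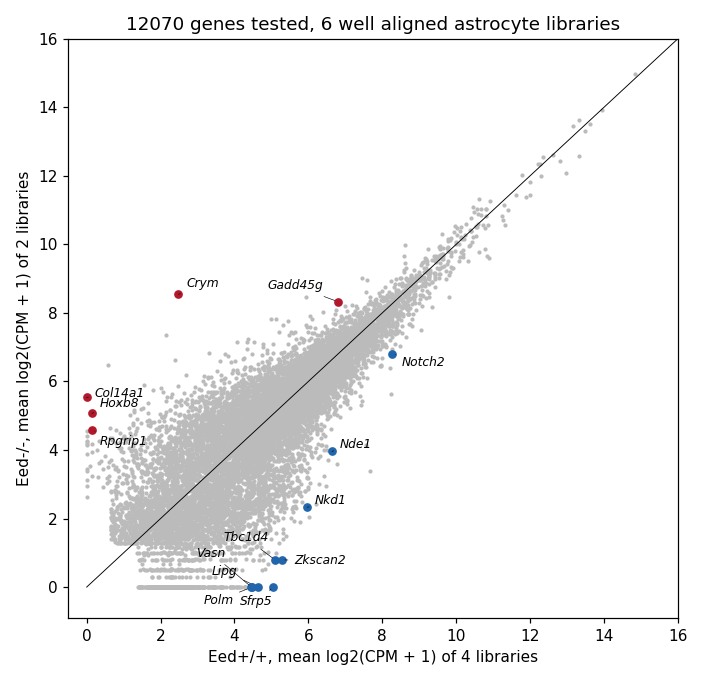
Mean log2(CPM + 1) of the 2 well aligned Eed-/- libraries (y axis) against that of the 4 well aligned Eed+/+ libraries (x axis) for the 12070 genes tested, with the line of equal level. The 14 genes called by DESeq2 are coloured and named, 5 higher (red) and 9 lower (blue) in Eed-/- cells. Crym stands farthest above the line.

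Crym encodes a cytosolic protein that binds thyroid hormone. Its reads numbered 6, 31, 23 and 2 in the well aligned Eed+/+ libraries (replicates 1, 2, 4 and 5), but 537 and 483 in the Eed-/- libraries (replicates 2 and 5). The levels were 2.86, 9.75, 9.56 and 1.23 CPM against 284 and 486 CPM, without overlap. The log2 fold change was 5.93 ± 0.68 (SE), with an adjusted p of 0.158 by edgeR, 0.102 by limma-voom and 1.2e-13 by DESeq2, and over 13 alternative fits the adjusted p lay between 1.76e-26 and 0.883. It no longer passed 0.2 in edgeR when any one of the 4 Eed+/+ libraries or Eed-/- replicate 2 was left out. Of the poorly aligned libraries, Eed-/- replicate 4 had 25 reads (118 CPM), and Eed+/+ replicate 3 and Eed-/- replicates 1 and 3 had 0 reads, where 3 reads would be 6.28, 7.83 and 7.44 CPM. In all 10 libraries the log2 fold change was 5.11 ± 1.63. In the sorted neurons of the series the gene had 0 reads in both Eed+/+ libraries and 48, 79 and 43 reads in the 3 Eed-/- libraries. Eed+/+ neuron replicate 2 was itself poorly aligned (31.0%), with 343640 reads on genes against 1256686 to 2058192 in the Eed-/- neurons, and 3 reads would be 8.73 CPM in it, which bears on every neuron value given here.

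Among the other genes that DESeq2 called higher, Col14a1, a collagen that associates with fibrils, had 0 reads in the 4 well aligned Eed+/+ libraries and 27 and 139 reads in Eed-/- replicates 2 and 5. Set against a floor of 3 reads over the Eed+/+ group, this was at least 178-fold higher, and the bound was 44.3 without Eed-/- replicate 5 and 434 without Eed-/- replicate 2. The poorly aligned Eed+/+ replicate 3 held 1 Col14a1 read and Eed-/- replicates 1 and 3 held 2 and 25, and Eed-/- replicate 3 was the library with the most pericyte and fibroblast markers, whereas those markers were at 181 and 96.6 CPM in Eed-/- replicates 2 and 5 against 24.7 to 143 CPM in well aligned Eed+/+ ones. Rpgrip1, a protein of the photoreceptor connecting cilium, had 1, 0, 0 and 0 reads against 106 and 9. Like Col14a1, it passed the filter only with the Eed-/- libraries, which favoured a positive value. Gadd45g, a stress- and differentiation-induced growth inhibitor, was present in all 6: 126, 119, 104 and 93.8 CPM in Eed+/+ and 379 and 272 CPM in Eed-/- cells. Its log2 fold change was 1.59 ± 0.34 (SE) and its DESeq2 adjusted p 0.0378. Gadd45g had 107 CPM in Eed+/+ replicate 3 and 313, 0 and 0 CPM in Eed-/- replicates 1, 3 and 4, so over 10 libraries the groups overlapped.

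The fifth gene of this set was Hoxb8, a member of the Hox family, which is described here as a whole. Of 39 Hox genes, which set position along the body axis and are normally silent in the forebrain, 15 had no read in any of the 10 libraries and 5 passed the filter. A Hox gene could pass only through the Eed-/- libraries, so those 5 had to differ, and their count supports nothing by itself. Over the whole family, the well aligned Eed+/+ replicates 1, 2, 4 and 5 held 3, 0, 2 and 0 Hox reads and Eed-/- replicates 2 and 5 held 216 and 279, from 11 and 20 genes. Among the poorly aligned libraries, Eed-/- replicates 1, 3 and 4 had 0, 66 and 5 Hox reads and Eed+/+ replicate 3 had 5. For Hoxb8 the 4 well aligned Eed+/+ libraries held 1, 0, 0 and 0 reads, while Eed-/- replicates 2 and 5 held 74 and 27 (log2 fold change 7.62 ± 1.64, SE, and 9.08 without Eed+/+ replicate 1). Hoxb6 had 22 and 34 reads in the Eed-/- libraries, Hoxc4 16 and 32, Hoxc6 10 and 16, and Hoxc11 11 and 10, all with 0 reads in the 5 Eed+/+ astrocyte libraries. The genes came from the Hoxb, Hoxc and Hoxd clusters. Hoxc8 had 41 and 4 reads in these libraries and 54 in the poorly aligned Eed-/- replicate 3, and Hoxd8 5 and 17 reads. The 2 Eed-/- animals differed within the family: Hoxb7 had 23 and 0 reads, Hoxc9 7 and 55, and Hoxc10 0 and 15. Both animals lacked reads of Hoxa7, which had 26, 44 and 33 reads in the 3 Eed-/- neuron libraries and 0 in both Eed+/+ ones.

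Genes without reads in the well aligned Eed+/+ libraries but with reads in both well aligned Eed-/- ones were also counted beyond the Hox clusters. In all, 24 genes had 0 reads in the 4 well aligned Eed+/+ libraries and at least 3 reads in both well aligned Eed-/- libraries, 20 of them protein coding and 6 of them Hox genes, and 22 of the 24 were also at 0 in Eed+/+ replicate 3. They were chosen by these counts, so no test is given. The converse, 0 reads in both Eed-/- libraries and at least 3 in all 4 Eed+/+ libraries, held for 91 genes, and 3 of these 4 Eed+/+ libraries were deeper than either Eed-/- library. Besides Col14a1 the 24 included Tbx4, a limb transcription factor, with 4 and 13 reads, Barx1, a homeobox gene of the stomach and jaw, with 10 and 5, Mab21l2, an eye and body wall regulator, with 4 and 20, and Nppc, the precursor of C-type natriuretic peptide, with 12 and 7. In the sorted neurons, 10 of the 24 (41.7%) had more CPM in each of the 3 Eed-/- libraries than in either Eed+/+ library. The share was 9.78% among the 22980 genes with a read in the 6 astrocyte libraries. Those genes were not matched to the 24 by level, so no excess is read from these shares. These 10 were Hoxb6, Hoxc4, Hoxc6, Hoxc11 and Hoxd8, and outside the Hox clusters Cdkn2a, Cnpy1, Htatip2, Pmaip1 and Eda2r. The astrocyte and neuron libraries of a genotype may come from the same animals, and the labels do not say. Of 79 other developmental transcription factors, 9 passed the filter, with 0 higher and 0 lower at an unadjusted p under 0.05, so most of this class was below the filter in both genotypes. Reads were found for 26, 14, 11 and 11 of the 79 genes in Eed+/+ replicates 1, 2, 4 and 5 and for 16 and 31 in Eed-/- replicates 2 and 5. In the sorted neurons they were found for 25 and 15 of the 79 genes in the Eed+/+ libraries and for 53, 56 and 61 in the Eed-/- libraries.

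PRC2 is known to be drawn to unmethylated DNA rich in the dinucleotide CG. The 250 bases before the start of a gene called higher and of 2 genes called lower are shown for this reason, from RefSeq on GRCm38.p6, 5′ to 3′ along the gene, with each CG in capitals. They are Hoxb8 (chr11:96281655-96281904, plus strand), Notch2 (chr3:98013288-98013537, plus strand) and Sfrp5 (chr19:42202253-42202502, minus strand).
Hoxb8: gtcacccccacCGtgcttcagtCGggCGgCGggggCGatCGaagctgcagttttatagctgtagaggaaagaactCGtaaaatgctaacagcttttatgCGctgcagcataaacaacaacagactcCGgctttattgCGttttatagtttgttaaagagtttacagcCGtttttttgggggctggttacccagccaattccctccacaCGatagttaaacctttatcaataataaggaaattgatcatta
Notch2: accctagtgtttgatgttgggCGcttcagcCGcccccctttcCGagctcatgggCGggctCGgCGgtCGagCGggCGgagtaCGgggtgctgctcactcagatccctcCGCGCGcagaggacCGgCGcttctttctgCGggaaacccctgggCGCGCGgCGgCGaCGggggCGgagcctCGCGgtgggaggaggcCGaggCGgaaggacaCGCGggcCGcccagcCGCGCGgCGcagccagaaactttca
Sfrp5: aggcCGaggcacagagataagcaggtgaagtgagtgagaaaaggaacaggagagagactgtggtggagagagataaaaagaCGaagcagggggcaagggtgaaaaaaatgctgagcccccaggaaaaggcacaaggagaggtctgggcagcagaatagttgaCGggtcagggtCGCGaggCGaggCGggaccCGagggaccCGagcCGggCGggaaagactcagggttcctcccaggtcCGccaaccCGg
The stretches hold 12, 34 and 13 CGs, and 33.5%, 3.53% and 31.5% of the 32851 stretches in the table hold at least as many. A promoter was found for 11 of the 14 genes. Over all stretches the median was 6 CGs and over those of 9316 genes tested 17, while for genes that DESeq2 called higher at 0.2 it was 16 (11 with a promoter) and for those called lower 15 (67 with a promoter). For the 11 genes called at 0.05 in either direction the median was 13.

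The 9 genes that DESeq2 called lower were led by 2 brakes on Wnt signalling. Nkd1, which binds Dishevelled and is itself induced by Wnt, was at 55.3, 78.7, 79.0 and 42.6 CPM in Eed+/+ replicates 1, 2, 4 and 5 and at 5.29 and 3.02 CPM in Eed-/- replicates 2 and 5. Its log2 fold change was -3.85 ± 0.74 (SE), and -4.54 without Eed-/- replicate 2, and its DESeq2 adjusted p was 0.00234. Sfrp5, a secreted protein that binds Wnt ligands, had 42, 134, 89 and 55 reads in these Eed+/+ libraries and 0 in all 5 Eed-/- libraries. In the well aligned libraries this was at least 33.1-fold lower against a floor of 3 reads over the Eed-/- group, with a bound of 11.4 without Eed-/- replicate 2 and of 21.7 without Eed-/- replicate 5, although Eed+/+ replicate 3 also had 0 reads. Notch2, a Notch receptor of radial glia and astrocytes, was at 310, 276, 319 and 326 CPM in Eed+/+ and at 106 and 117 CPM in Eed-/- cells (-1.46 ± 0.31, DESeq2 adjusted p 0.00929). Notch2 was at 136, 104 and 0 CPM in the poorly aligned Eed-/- libraries and at 60.7 CPM in the poorly aligned Eed+/+ one. Nde1, which binds the dynein regulator Lis1 and serves progenitor division, was at 117, 84.9, 86.9 and 110 CPM against 7.93 and 26.1 CPM (-2.63 ± 0.56, and -3.48 without Eed-/- replicate 5), but at 159 CPM in Eed-/- replicate 1.

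The other 5 of these genes had almost no reads in Eed-/- replicates 2 and 5. They passed the filter only with the Eed+/+ libraries, which favoured a negative value. Lipg, an endothelial-type lipase of lipoproteins, had 43, 77, 67 and 38 reads against 0 and 0. Polm, a DNA polymerase of end joining, had 23, 49, 43 and 107 against 0 and 0, and Vasn, a membrane protein that binds TGF-beta, had 33, 84, 25 and 71 against 0 and 0. Zkscan2, a zinc finger gene, and Tbc1d4, a regulator of glucose transporter traffic, each had 0 reads in replicate 2 and 2 reads in replicate 5 against at least 55 reads in every well aligned Eed+/+ library. Vasn had 17 and 12 reads in the poorly aligned Eed-/- replicates 1 and 3 and 9 in Eed+/+ replicate 3, so that its contrast was seen in the well aligned libraries only.

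**Figure D3:**
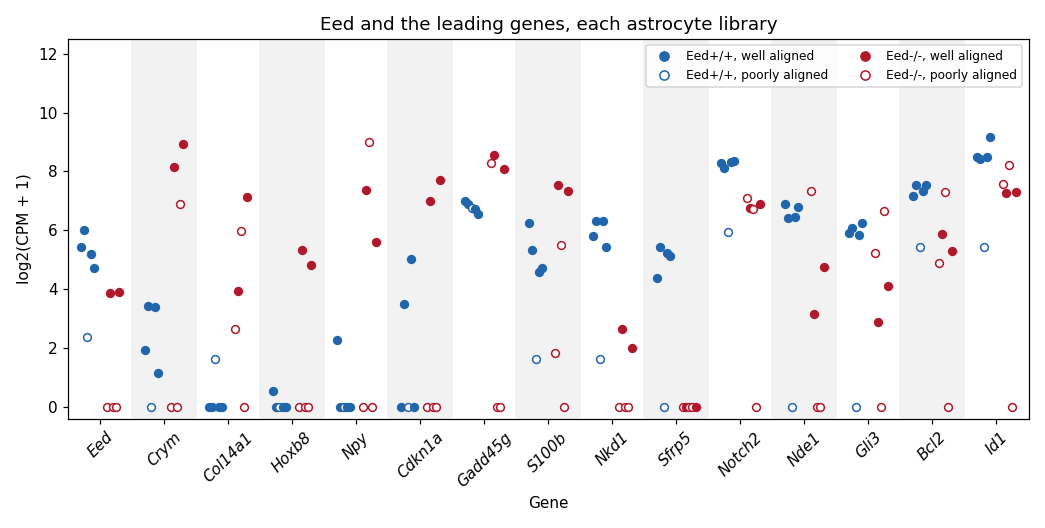
Level of Eed and of 14 leading genes, as log2(CPM + 1), in each astrocyte library, 1 point per library. Blue points are Eed+/+ and red points Eed-/-, and open points are the 4 poorly aligned libraries. Filled red points lie above all filled blue points from Crym to S100b and below them for Eed and from Nkd1 to Id1, while the open points scatter, many at 0.

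Lists of genes are described by their counts and medians in the 6 well aligned libraries. Over all 10 libraries the median of 15 of the 24 lists plotted had the other sign, where the median of all genes was itself -0.54. Set against the median of all genes in each case, 11 lists lay above it in both sets of libraries, 4 below it in both and 9 on opposite sides. Wnt genes outside this pair went both ways. Of 35 genes of the pathway 28 were tested, 2 were higher and 3 lower at an unadjusted p under 0.05 (1.26% and 2.78% of all genes tested were), and the median log2 fold change was 0.23 against -0.02 for all genes (over 10 libraries, -0.61 against -0.54), and -0.53 without Eed-/- replicate 2. The 3 lower ones, Nkd1, Sfrp5 and Frzb, passed the filter only with the Eed+/+ libraries. Sfrp2, a relative of Sfrp5, was at 52.9 and 47.3 CPM in Eed-/- against 8.49 to 21.2 CPM in Eed+/+ cells, and Ctnnb1, which encodes beta-catenin, at 265 and 340 against 94.4 to 218 CPM. Frzb, another secreted Wnt antagonist, had 1, 10, 18 and 31 reads in Eed+/+ and 0 in both Eed-/- libraries. Of 20 Notch pathway genes 19 were tested, only Notch2 was below 0.05 (lower), and the median was 0.07 (-0.14 over 10 libraries and -0.31 without Eed-/- replicate 2). Lfng, a glycosyltransferase that modifies Notch, was at 123 and 33.2 CPM in Eed-/- and 129 to 169 CPM in Eed+/+ cells. The Notch target Hes5 was at 699 and 180 CPM against 599 to 1333 CPM, with overlap.

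The hedgehog effector Gli3, a transcriptional repressor in the absence of the signal, was at 59.1, 66.4, 55.7 and 75.2 CPM in Eed+/+ replicates 1, 2, 4 and 5 and at 6.35 and 16.1 CPM in Eed-/- replicates 2 and 5 (log2 fold change -2.58 ± 0.62, SE, and -3.17 without Eed-/- replicate 5). It was at 36.5, 0 and 99.2 CPM in the poorly aligned Eed-/- libraries. Of 44 genes of the primary cilium and intraflagellar transport, all tested, 0 were higher and 3 lower at an unadjusted p under 0.05, namely Gli3, Wdr19 and Dync2h1, the motor of retrograde transport, with 0 and 7 reads against 74 to 103. Of all genes tested 1.26% were higher and 2.78% lower. Wdr19 and Dync2h1 passed the filter only with the Eed+/+ libraries. The median of the list was 0.11, over 10 libraries -0.63, and without Eed-/- replicate 5 -1.06. Kif3a, a motor of the opposite direction, was at 131 and 169 CPM in Eed-/- and 72.8 to 105 CPM in Eed+/+ cells.

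Genes that restrain division were next. Of 8 cyclin-dependent kinase inhibitors 6 were tested, 2 were higher at an unadjusted p under 0.05 (1.26% of all genes tested were) and 0 lower. Of these 2, Cdkn2b passed the filter only with the Eed-/- libraries, which favoured a positive value. Over 10 libraries 3 were tested, 0 of them under 0.05. Reads of Cdkn1a (p21) numbered 0, 33, 76 and 0 in the well aligned Eed+/+ libraries, while Eed-/- replicates 2 and 5 held 242 and 208, with 0 reads in all 4 poorly aligned libraries. Its log2 fold change was 3.94 ± 1.38 (SE), and 5.37 without Eed+/+ replicate 4. Cdkn2b (p15) had 0, 1, 0 and 0 reads against 13 and 16, but 22 reads in Eed+/+ replicate 3. Cdkn2a, at the same locus, had 0 reads in all 5 Eed+/+ and 6 and 20 in these Eed-/- libraries and did not pass the filter. Cdkn1b (p27), which is broadly expressed, was at 108 and 126 CPM against 94.1 to 152 CPM, and Cdkn1c (p57) had 40 reads in Eed+/+ replicate 4, 0 in the other 5 well aligned libraries and 59 in Eed-/- replicate 3. In neurons Cdkn1a had 38 and 2 reads in the Eed+/+ and 289, 405 and 372 reads in the Eed-/- libraries.

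Response genes of the tumour suppressor p53 mostly had positive fold changes in the 6 well aligned libraries, but not over all 10. Of 22 genes 21 were tested, 4 were higher and 0 lower at an unadjusted p under 0.05 (1.26% and 2.78% of all genes tested were), 6 were higher without overlap (6.33% of all genes tested were) and 19 of 21 had a log2 fold change above 0 (48.9% of all genes did). The median was 0.54, and 0.25 without Eed-/- replicate 5 and 0.91 without Eed-/- replicate 2. The genes summed to 776 CPM in Eed-/- replicate 2, within the 592 to 856 CPM of the well aligned Eed+/+ libraries, and to 1555 CPM in replicate 5, the library that also held the most neuron marker signal of these 6 (3494 CPM), and the part of this in the value was not tested. Eda2r, Pmaip1 and Tnfrsf10b passed the filter only with the Eed-/- libraries, which favoured a positive value, and they account for 3 of the 4, 3 of the 6 and 3 of the 19. Among all genes the same holds for 138 of the 764 that were higher without overlap. Over 10 libraries 14 were tested, 5 had a fold change above 0 (28.6% of all genes did) and 9 below, the median was -0.15 against -0.54 for all genes, and 0 were under 0.05. Eda2r, a TNF receptor family member, had 0 reads in the Eed+/+ libraries and 20 and 27 in the well aligned Eed-/- ones. Pmaip1 (Noxa), which promotes cell death at the mitochondrion, had 0 reads against 10 and 18, with a further 63 in Eed-/- replicate 1. Trp53inp1 was at 13.8 and 117 CPM against 6.65 to 12.3 CPM and Tnfrsf10b, a death receptor, had 23 and 14 reads against 4, 1, 0 and 0. Ccng1, a cyclin induced by p53, had 172 and 135 reads against 72, 85, 79 and 0. Mdm2, the feedback inhibitor of p53, was at 50.8 and 91.5 against 32.1 to 70.1 CPM and overlapped. Bcl2, which opposes cell death, was lower: 144, 185, 160 and 186 CPM in Eed+/+ and 57.7 and 38.2 CPM in Eed-/- cells (-1.77 ± 0.42, SE), though Eed-/- replicate 3 had 159 CPM and Eed+/+ replicate 3 had 41.9 CPM.

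Cell cycle genes mostly had negative fold changes, and their level varied widely between animals of 1 genotype. All 56 genes of the G2 and M phases were tested, 50 had a log2 fold change below 0 and the median was -1.37. Of all genes tested 48.9% had a fold change above 0. Only Ccnf was under an unadjusted p of 0.05, and it was lower, where 2.78% of all genes tested were. Of the 56 genes, 44 passed the filter only with the Eed+/+ libraries, so that a negative value was favoured. The summed level was 5307, 708, 2726 and 470 CPM in Eed+/+ replicates 1, 2, 4 and 5 and 366 and 2074 CPM in Eed-/- replicates 2 and 5. The genotypes overlapped, and the range within Eed+/+ animals was wider than the distance between the groups. Of 43 S phase genes 40 were tested, 0 were higher and 4 lower at an unadjusted p under 0.05 (among them Gins2, Ung and Gmnn), where 1.26% and 2.78% of all genes were, and the median was -0.57. All 4, and 22 of the 40, passed the filter only with the Eed+/+ libraries. Over 10 libraries the medians were -0.38 for 30 G2 and M phase genes and -0.83 for 25 S phase genes, against -0.54 for all genes. Their sum was 1406, 787, 2367 and 561 CPM against 502 and 1627 CPM. Mki67, the proliferation marker Ki67, had 171, 20, 89 and 0 reads in Eed+/+ and 0 and 56 in Eed-/- libraries, and Top2a, a topoisomerase of dividing cells, 753, 82, 371 and 0 against 0 and 159. The 8 markers of intermediate progenitors include Gadd45g. Their sum was 441 and 1004 CPM in Eed-/- replicates 2 and 5 and 199.8 to 365 CPM in well aligned Eed+/+ libraries, without overlap. The 5 tested had fold changes above 0, where 48.9% of all genes tested did, with a median of 1.02. Gadd45g made up 379 of the 441 CPM and 272 of the 1004 CPM. Eomes, the defining marker of these cells, had 204 reads in Eed-/- replicate 5 and 0 in the other 9 libraries, and replicate 5 also held more neuron marker signal, 3494 CPM against 554 CPM in replicate 2, and 471 to 2656 CPM in well aligned Eed+/+ libraries. The part of these cells in the higher cell cycle level of replicate 5 was not tested. The medians rested on single libraries: without Eed-/- replicate 5 they were -8.28 for the G2 and M phase genes and -2.60 for the S phase genes, and without Eed-/- replicate 2 they were -0.55 and 0.08. Without Eed+/+ replicate 1 the first was -0.60, and without Eed+/+ replicate 4 the second was -0.10. Fitting replicate numbers as a block turned the medians to 0.97 and 0.32, although those numbers did not pair the samples. Bulk values cannot tell fewer cycling cells from less RNA per cell.

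**Figure D4:**
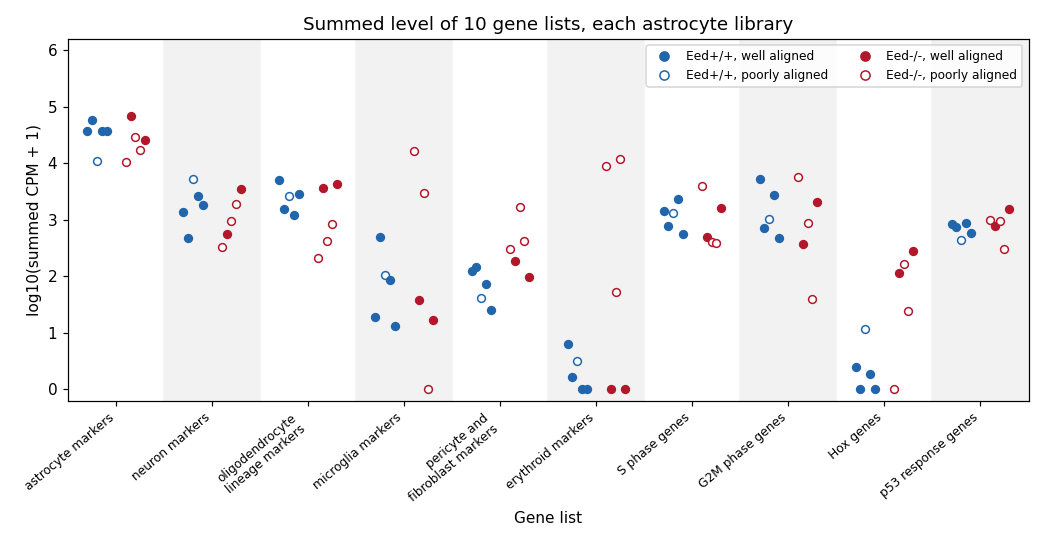
Summed level of 10 gene lists, as log10(summed CPM + 1), in each astrocyte library. Blue is Eed+/+, red is Eed-/-, and open points are poorly aligned libraries. Astrocyte marker sums run from 10670 to 68450 CPM, the erythroid and microglia sums stand out in open red points, the Hox sums of the filled groups do not overlap, and the S phase and G2M sums overlap.

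Transcription factors of gliogenesis and radial glia were examined next. Of 24 genes 23 were tested, 0 were higher and 1 lower at an unadjusted p under 0.05 (1.26% and 2.78% of all genes tested), 5 were lower without overlap and 0 higher (7.83% and 6.33% of all genes), and the median was -0.40. Over 10 libraries the median was -1.01, against -0.54 for all genes. Id1, an inhibitor of differentiation downstream of BMP, was at 360, 342, 359 and 577 CPM in Eed+/+ and 152 and 158 CPM in Eed-/- cells (log2 fold change -1.39 ± 0.36, SE). Id3 was at 1323, 2553, 1295 and 2511 CPM against 1116 and 579 CPM. Sox9, a determinant of glial fate, was at 927 to 1245 CPM against 759 and 692 CPM, and Nfia, which drives the onset of gliogenesis, at 750 to 1247 CPM against 448 and 680 CPM. Prdm16, a chromatin regulator of radial glia, had 89, 153, 70 and 147 reads against 26 and 0. In the poorly aligned Eed-/- libraries Sox9 was at 125, 7.43 and 0 CPM and in the poorly aligned Eed+/+ one at 226 CPM.

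For the functions of the mature astrocyte the genotypes mostly overlapped. Of 20 genes for glutamate, potassium and water handling, all tested, 0 were higher and 0 lower at an unadjusted p under 0.05, and the median was 0.21 (over 10 libraries -0.31). The glutamate transporter Slc1a2 was at 3319 and 1973 CPM in Eed-/- and 972 to 2082 CPM in Eed+/+ cells, the transporter Slc1a3 at 7099 and 2314 against 3953 to 6379 CPM, and the water channel Aqp4 at 1792 and 1323 against 941 to 2440 CPM. Gfap, the intermediate filament, was at 641 and 1013 against 235 to 910 CPM and overlapped as well. The 25 astrocyte markers had a median of 0.24, and of -0.40 over 10 libraries. Without Eed-/- replicate 2 this median was -0.89 and that of the handling genes -0.63, and without Eed-/- replicate 5 they were 0.65 and 0.78, so that the sign rested on 1 animal. S100b, a calcium-binding protein that accumulates as astrocytes mature, was the only one of the 25 astrocyte markers under an unadjusted p of 0.05: 74.8, 39.3, 22.9 and 25.3 CPM in Eed+/+ and 186 and 160 CPM in Eed-/- cells (log2 fold change 2.12 ± 0.52, SE, and DESeq2 adjusted p 0.111). Serpina3n, a serine protease inhibitor of reactive astrocytes, had 29, 1, 7 and 0 reads against 117 and 56. Of 22 maturation and reactive markers 13 were tested, 2 of them (these 2) were higher and 0 lower at an unadjusted p under 0.05 (1.26% and 2.78% of all genes), and the median was -0.29, but 0.19 without Eed-/- replicate 5. Serpina3n passed the filter only with the Eed-/- libraries, which favoured its direction. Nes, the intermediate filament nestin of progenitors, was at 101 and 46.3 CPM in Eed-/- and 112 to 188 CPM in Eed+/+ cells.

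The matrix proteoglycans Ncan and Vcan were the 2 genes of their list under an unadjusted p of 0.05. Ncan was at 4760 and 3885 CPM in Eed-/- and 6697 to 9574 CPM in Eed+/+ cells, and Vcan at 270 and 468 against 183 to 229 CPM, both without overlap in these 6 libraries. Over all 10 both overlapped, as did every gene of the list. They belonged to a list of 19 factors that organise synapses, of which 17 were tested, with a median of 0.28. At an unadjusted p under 0.05, 1 was higher and 1 lower (1.26% and 2.78% of all genes tested were). Without overlap, 2 were higher and 1 lower (6.33% and 7.83% of all genes). Over 10 libraries 4 of the 15 tested had a fold change above 0 and 11 below, and the median was -0.76, below the -0.54 of all genes. Of 32 collagen genes 22 were tested, 2 were higher (Col14a1 and Col2a1) and 1 lower (Col4a4), where 1.26% and 2.78% of all genes were, and the median was 0.52. Col14a1 passed the filter only with the Eed-/- libraries and Col4a4 only with the Eed+/+ libraries. Col2a1, a cartilage collagen, was at 135 and 82.5 CPM against 3.33 to 43.2 CPM. In the BMP pathway (20 of 25 tested, median 0.31, but -0.47 over 10 libraries and -0.84 without Eed-/- replicate 5) Gdf10, a secreted BMP-family ligand, was at 19.6 and 131 CPM against 3.81 to 13.7 CPM.

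Neuronal and oligodendrocyte genes were examined because a shift in purity would show there. Of 38 synaptic genes 34 were tested, 1 was higher (Shank3) and 0 lower at an unadjusted p under 0.05 (1.26% and 2.78% of all genes tested), 6 were higher without overlap and 0 lower (6.33% and 7.83% of all genes), and the median was 0.75. Shank3 and 2 of the 6 passed the filter only with the Eed-/- libraries. Over 10 libraries 25 were tested, 6 had a fold change above 0 and 19 below, with a median of -0.45 against -0.54 for all genes. Shank3, a scaffold of the postsynapse, had 4, 0, 1 and 1 reads in Eed+/+ and 40 and 16 in Eed-/- libraries, while the vesicle protein Syp was at 30.1 and 34.2 CPM against 7.55 to 23.4 CPM. Without Eed-/- replicate 5 the median was -0.30. The summed synaptic level was 1684 and 2774 CPM against 1395 to 2037 CPM and overlapped. Of 20 neuron markers 17 were tested, 0 were under 0.05 in either direction and the median was 0.44, but -1.11 over 10 libraries and -0.96 without Eed-/- replicate 5. Npy, the precursor of neuropeptide Y, which marks interneurons, had 8, 0, 0 and 0 reads against 313 and 47, and 206 in the poorly aligned Eed-/- replicate 3 (log2 fold change 6.88 ± 1.47, SE). It passed the filter only with the Eed-/- libraries, which favoured its direction, and its fold change was 5.43 without Eed-/- replicate 2 and 10.8 without Eed+/+ replicate 1. In neurons it had 6 and 0 reads in Eed+/+ and 73, 154 and 90 in Eed-/- libraries. The sum of interneuron markers, Npy included, was 231 and 680 CPM in Eed-/- and 0.617 to 668 CPM in Eed+/+ libraries, with overlap. Oligodendrocyte lineage markers (9 of 10 tested, median 0.89 but -0.30 over 10 libraries and 0.25 without Eed-/- replicate 5, 0 under 0.05) summed to 3587 and 4280 CPM against 1208 to 5045 CPM. The highest of these was Eed+/+ replicate 1, where Mbp, a myelin protein, had 4148 reads against 26 or fewer in the other 3 well aligned Eed+/+ libraries.

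**Figure D5:**
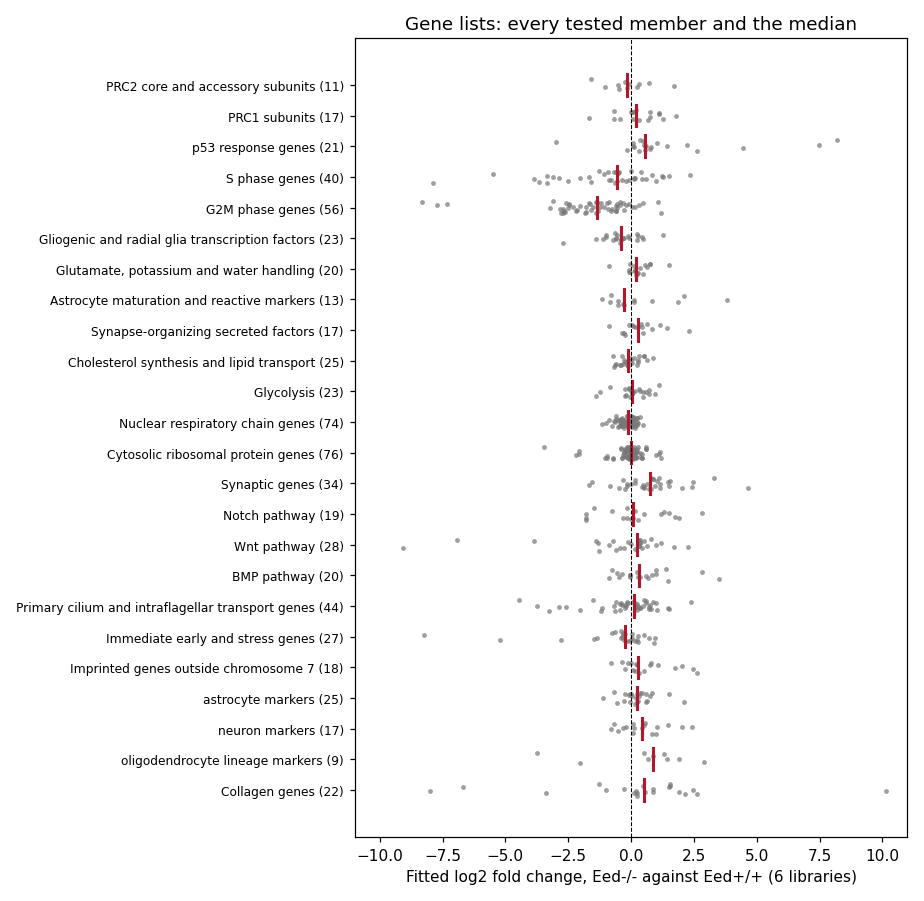
Fitted log2 fold change of Eed-/- against Eed+/+ cells in the 6 well aligned libraries (x axis) for every tested member of 24 gene lists (y axis, number tested in brackets). Each point is a gene, the red bar is the median of the list and the dashed line the median of all genes, -0.02. The G2M list lies farthest to the left at -1.37, and most other medians lie within 1 unit of the line.

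Housekeeping functions had medians near that of all genes in the 6 libraries. Of 74 nuclear genes of the respiratory chain 0 were under an unadjusted p of 0.05, with a median of -0.11 (0.10 without Eed-/- replicate 5), 3 higher and 10 lower without overlap (6.33% and 7.83% of all genes). Of 76 cytosolic ribosomal protein genes 1 was lower and 0 higher at an unadjusted p under 0.05 (2.78% and 1.26% of all genes), with a median of -0.01 (0.15 over 10 libraries). Glycolysis (23 tested) and cholesterol synthesis and lipid transport (25 tested) had 0 genes under 0.05 and medians of 0.05 and -0.12 (-0.50 and -0.35 over 10 libraries, -0.16 and -0.97 without Eed-/- replicate 2, 0.34 and 0.26 without Eed-/- replicate 5). Of 30 immediate early and stress genes 27 were tested, 0 were higher and 2 lower (1.26% and 2.78% of all genes), Arc and the heat shock gene Hspa1a, with a median of -0.25, and both passed the filter only with the Eed+/+ libraries. Hspa1a was at 3.81, 29.9, 9.15 and 212 CPM in Eed+/+ and 0 and 4.02 CPM in Eed-/- libraries. These genes respond to handling of the tissue, and a part of handling in the values was not tested. Of 22 imprinted genes outside chromosome 7, 18 were tested, 0 were under 0.05 and the median was 0.29 (-0.54 over 10 libraries and -0.02 without Eed-/- replicate 5). The other PRC2 subunits (11 tested with Eed, median -0.15, but 0.26 without Eed-/- replicate 2) held 0 genes under 0.05. Of the related complex PRC1 17 of 19 genes were tested, with a median of 0.21 (-0.09 over 10 libraries and -0.67 without Eed-/- replicate 5). Fold changes were above 0 for 12 and below for 5, and 0 were higher and 1 lower at an unadjusted p under 0.05 (1.26% and 2.78% of all genes). Without overlap 2 were higher and 1 lower (6.33% and 7.83% of all genes). The lower one was Kdm2b, a subunit that binds unmethylated CG-rich DNA, at 12.7 and 19.1 CPM against 31.6 to 82.0 CPM.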

How the data were processed

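Sequencing of sorted cells from individual P4 mice followed the Smart-Seq2 protocol, and per the labels the authors used STAR and the mouse build GRCm38 (mm10). The deposited files hold raw counts of reads with 1 alignment, summed by gene over both strands, for 53379 genes; 105 had no symbol. Smart-Seq2 has no molecular identifiers, so floors (3 counts) cover counting error only. Of the 16 libraries 15 had a group; 1 had contradictory cell type labels and was not used. The study set aside 5 libraries that it does not name. Well aligned means at least 60% and at least 1000000 uniquely aligned reads, limits the study used for its embryonic libraries.

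Counts were filtered with filterByExpr (10 counts at the median library size in as many libraries as the smaller group has, 15 in all), scaled by TMM and fitted over the astrocyte libraries with edgeR 4.0.16 (quasi-likelihood, robust; R 4.3.3), with Benjamini-Hochberg adjustment over all genes tested. Fold changes are Eed-/- over Eed+/+ on the log2 scale. DESeq2 1.42.0, limma 3.58.1, RLE scaling, no filter, a mean count above 10, library number runs, a replicate block and leaving out each library were alternatives. Fits were tested on simulated data. Ratios against 0 use 3 counts over the group. P-values measure the spread between animals.

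The members, the 44 gene lists and the markers were chosen with earlier results of these data known. Genes were named by rule: DESeq2 calls at 0.05 in the 6 libraries (at most 15 per direction), the 10 per direction with the smallest edgeR p among genes without overlap, the 5 per direction over 10 libraries, the 2 most abundant and the lowest-p member of each list, and Eed, Ezh1, Ezh2, Suz12, Cdkn1a, Cdkn2a, Crym, Mki67, Gfap, Aqp4, Xist and Uhrf1. Other genes were named after their values were seen. 1 list gene was not in the files, and 1 S phase gene is not reported by name here.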

Additional observations from a re-analysis of the deposited data

Results flagged for a closer look

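In groups of 5 libraries, 22 of 136 values examined (16.2%) had 1 library that stood apart by Dixon's criterion. The criterion's rate of about 1 in 20 holds for independent, normally distributed values. The values here include genes with reads in 1 library only, and libraries of unequal depth, so these rates are not compared. Eed+/+ replicate 3, poorly aligned, accounted for most of those in Eed+/+ astrocytes: 48.1% of its reads lay outside genes, and it held 5369 CPM of DNA methylation machinery (mostly Uhrf1, 4887 CPM), 10.5 CPM of Hox genes, 4002 CPM of synaptic genes, 1371 CPM of sex chromosome genes and 54.4 CPM of endothelial markers. The same library had 2.09 CPM of Col14a1, 60.7 CPM of Notch2, 0 CPM of Nde1 and of Gli3, 9664 CPM of Gm47542 and 312 CPM of Fam171a2. Eed+/+ replicate 2 stood apart with 484 CPM of microglia markers, and Eed+/+ replicate 1 with 0.477 CPM of Hoxb8 and 3.81 CPM of Npy.

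Among Eed-/- astrocytes, replicate 3 stood apart with 1299 CPM of retinoic acid pathway genes and 1656 CPM of pericyte and fibroblast markers, and replicate 1 with 16440 CPM of microglia markers and 159 CPM of Nde1. Replicate 4 had 0 CPM of Notch2, and replicate 5 had 10.1 CPM of Fam171a2.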

How the results depend on the processing

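For all 10 libraries, the number of genes called at an adjusted p of 0.05 (0 in edgeR) was 1 with DESeq2, 5 without a filter, 24 with a mean count above 10 and 0 to 1 when each library was left out, and it was 0 with limma-voom, RLE, the run of library numbers or the replicate block. At 0.2 (0 in edgeR) it was 1 with DESeq2, 1 with RLE, 87 without a filter, 51 with a mean count above 10 and 0 to 316 leaving out each library (316 without Eed-/- replicate 5). For the 6 well aligned libraries, the number at 0.05 (0) was 14 with DESeq2, 14 without a filter, 15 with the replicate block and 0 leaving out each library. At 0.2 (1) it was 106 with DESeq2, 39 without a filter, 32 with the replicate block, 0 with the run as a covariate and 0 to 242 leaving out each library (242 without Eed-/- replicate 5). Of the 14 DESeq2 genes, 2 were among the 14 called without a filter and 1 among the 15 called with the block. The cause of these shifts was not tested.

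Fits within runs of library numbers, and DESeq2 under further settings, were added after seeing the data. Within run 1, edgeR called 4 genes at both thresholds over all libraries and 406 at 0.05 and 1808 at 0.2 over the well aligned ones, where each run has a lone Eed-/- library whose spread is taken from the Eed+/+ libraries. Within run 2 it called 0 in all 4 cases. DESeq2 on the 6 libraries called 22 genes at 0.05 with the run as covariate, 27 with the replicate block, 60 without a filter, 26 with a mean count above 10 and 5 to 611 leaving out each library. At 0.2 (106) it called 60 with the block, 164 without a filter and 30 to 1673 leaving out each library. Crym was among the DESeq2 calls at 0.05 under each of these settings.

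The difference in Eed level had p = 0.133 in the exact permutation test over the 6 libraries and 0.0159 to 0.0476 when each of the 10 was left out. Refits were run for 15 of the genes printed in the 6 libraries and 7 in the 10, and their fold changes kept direction and side of 0.05 in 289 refits and kept direction but passed 0.05 in 14. Medians of the printed lists moved by more than the spread in 19 refits and by less in 293, and the median of 19 of the 24 lists took the other sign in at least 1 of them; the replicate block, for example, turned those of the G2 and M and the S phase genes to 0.97 and 0.32. Over the refits of the 6 libraries the medians of the p53 response genes (0.25 to 0.91) and the gliogenic factors (-0.55 to -0.36) kept theirs, while over 10 libraries the former was -0.15. Replicate numbers did not pair the samples: same-numbered libraries had correlations of -0.017 to 0.195, and Eed+/+ replicate 2 and Eed-/- replicates 2 and 3 were the libraries that correlated best with their own number. Depth limits genes under about 3 reads, most of all in the 4 poorly aligned libraries.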
